A study of Saccharomyces cerevisiae with 28 samples.

Results

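The budding yeast (Saccharomyces cerevisiae) regulators that act through, or next to, the stress response element were followed in 10 steady-state RNA-sequencing libraries. The group comprised 7 genes, chosen by systematic name: the activators MSN2 and MSN4, the zinc finger regulators USV1 and COM2, the JmjC-domain regulators GIS1 and RPH1, and the kinase gene RIM15. All 7 were found among the 6692 genes of each library, RPH1 by its symbol because the files list it as YER169W. The libraries came from strain YL390 at 0.2% glucose and from strain YL388 at 0.0125, 0.02, 0.025, 0.05, 0.075, 0.1, 0.15, 0.2 and 0.4% glucose, 1 library each. Cultures were pre-grown in synthetic minimal medium with 0.2% glucose and then kept for 2 h in the stated concentration. The labels give both strains by number only and state no allele, marker or parent for either. The other 18 of the 28 samples, from transient salt and ethanol stress and its unstressed controls at 0.05% glucose, were not analysed here. Among the libraries used, each strain and concentration had 1. The spread of the 9 YL388 libraries around a line or curve over glucose is therefore used as the error here. That spread includes any misfit of the line or curve and is not a replicate error. Nothing states whether libraries of a concentration series came from separate starting cultures.

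Msn2 and its paralog Msn4 are zinc finger activators that bind the stress response element, whose core reads AGGGG. While glucose is plentiful, protein kinase A keeps them in the cytoplasm, and on stress or glucose loss they enter the nucleus, often in pulses, and switch on genes for heat protection, trehalose, glycogen and defence against oxidants. Gis1 and Rph1 carry similar fingers beside a JmjC domain: Gis1 acts after the diauxic shift through a related element with the core AGGGAT, and Rph1 is a histone demethylase and repressor. Rim15, a kinase restrained by protein kinase A, Sch9 and Pho85, acts through the endosulfines Igo1 and Igo2 and conveys nutrient loss to Msn2, Msn4 and Gis1. Usv1 is a finger protein tied to growth on non-fermentable carbon and to salt stress, and Com2 is one tied to tolerance of sulfite.

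Levels are given in FPKM (fragments scaled by gene length and by sequencing depth), and the deposited lower and upper confidence bounds accompany them. The bounds implied between 5.9 and 9.2 M fragments per library (M stands for 1e6), the lowest in YL388 at 0.15% glucose and the highest in YL390. None of the 7 genes overlapped another gene. The FPKM of USV1, the shortest at 1176 bp, lay above its own upper bound in 10 of 10 libraries. That of MSN2 (2115 bp) did so in 4 of 10, and that of COM2 (1332 bp) in 0 of 10. The levels of USV1 and MSN2 relative to other genes are thus less certain than their ratios between libraries. In extracts of whole cultures, fewer cells with a transcript and less transcript per cell cannot be told apart.

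In YL388 the 7 transcripts spanned a wide range of levels, here as FPKM, which is per length. The mean over the 9 libraries was 140.4 ± 49.3 FPKM for USV1, 42.8 ± 3.06 FPKM for MSN2, 32.9 ± 1.88 FPKM for COM2, 24.1 ± 3.39 FPKM for GIS1, 19.4 ± 1.51 FPKM for RPH1, 8.49 ± 0.746 FPKM for RIM15 and 1.10 ± 0.343 FPKM for MSN4 (SD, n = 9 libraries). USV1 stood above MSN2, and MSN2 above COM2, in 9 of 9 libraries without overlap of their ranges. The ranges of COM2 and GIS1 overlapped, although COM2 was the higher in 9 of 9 libraries. GIS1 and RPH1 were the neighbours that changed places, with GIS1 higher in 8 of 9. MSN4 was the lowest of the group in every YL388 library, and MSN2 stood between 25.6 and 62.9 times above it.

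**Figure D1:**
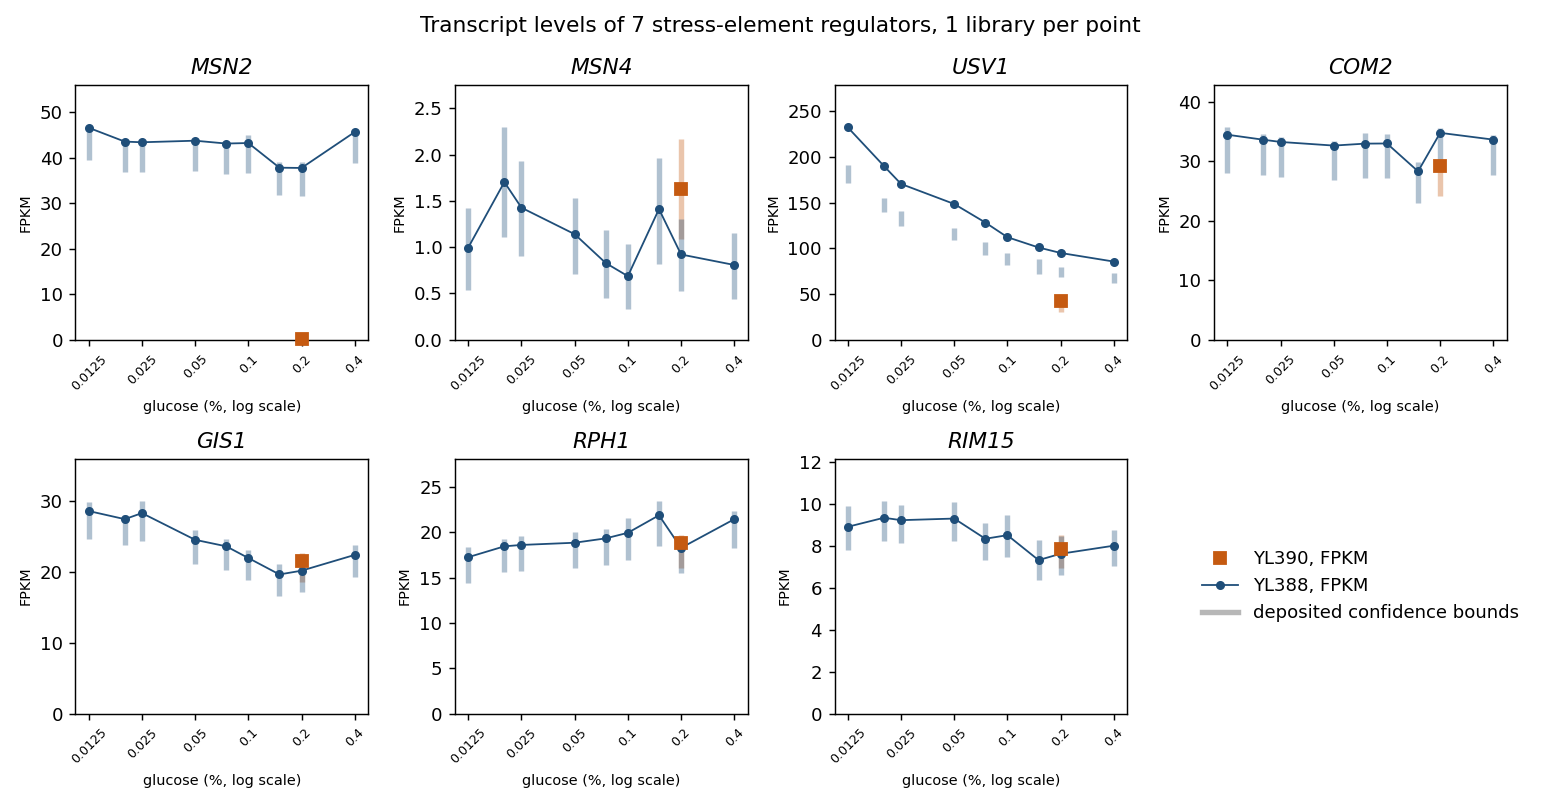
FPKM of each regulator (vertical axis, from 0, with its own scale in each panel) against glucose in percent on a log scale. The orange square is the YL390 library, blue points are the 9 YL388 libraries, and pale bars are the deposited confidence bounds. USV1 climbs to 232 FPKM at 0.0125%, GIS1 is highest in the 3 libraries up to 0.025%, and the YL390 square lies at 0.166 FPKM in the MSN2 panel.

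MSN2, the main activator of the stress element (YMR037C, chromosome XIII, 344403 to 346517, minus strand), was the member that set the strains apart. It was listed at 0.166 FPKM in YL390 (bounds 0.0294 and 0.294), against 37.8 FPKM in YL388 at 0.2% glucose (bounds 31.7 and 39.0). The YL390 value is 0.439% of the YL388 value, and even its upper bound is 0.929% of the YL388 lower bound. On the log2(FPKM + 1) scale, which understates changes of low values, the difference was -5.06, the 19th lowest of 6072 genes. Whether YL390 carries an altered MSN2 gene is not given in the labels, and the difference between 2 single libraries has no replicate check.

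Across glucose in YL388 the MSN2 transcript was at 46.6, 43.5 and 43.4 FPKM at 0.0125, 0.02 and 0.025%, at 43.7, 43.1 and 43.2 FPKM at 0.05, 0.075 and 0.1%, and at 37.8, 37.8 and 45.6 FPKM at 0.15, 0.2 and 0.4%. The lowest and the highest concentration thus held the highest values, and the libraries at 0.15 and 0.2% the lowest. The fitted change from 0.4 to 0.0125% was 0.14 ± 0.10 on the log2 scale (SE, n = 9 libraries; limma adjusted p = 0.300). Its 95% interval ran from -0.09 to 0.37, that is from 0.937 to 1.29-fold, so larger changes in a straight-line trend were outside it. Without the 0.4% library the change was 0.31 and passed the threshold (limma adjusted p = 0.0214), so the absence of a call rests on that library.

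MSN4, the paralog (YKL062W, chromosome XI, 323228 to 325120, plus strand), was near the floor in both strains. YL390 held 1.63 FPKM (bounds 1.09 and 2.17), against 0.921 FPKM in YL388 at 0.2% (bounds 0.529 and 1.30), and these bounds overlap. In YL388 it stood at 0.997, 1.70 and 1.43 FPKM from 0.0125 to 0.025%, at 1.14, 0.829 and 0.687 FPKM from 0.05 to 0.1%, and at 1.41, 0.921 and 0.808 FPKM from 0.15 to 0.4%. Of the 8 steps towards lower glucose 6 were upward, and those to 0.1% and to 0.0125% were downward. The highest value was at 0.02% and the lowest at 0.1%. The fitted change of 0.34 ± 0.35 was not called (SE, n = 9; limma adjusted p = 0.450), with an interval from 0.735 to 2.19-fold of FPKM + 1. It was 0.60 with a pseudocount of 0.1 and 0.060 with quantile normalization, 0.54 without the 0.0125% library and 0.21 without the 0.02% library, and was called in none of these. How fragments shared by MSN2 and MSN4 were assigned is not given in the sources used here, and the genotype at MSN4 is not given in the labels.

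USV1 (YPL230W, chromosome XVI, 115312 to 116487, plus strand) was the member that moved most with glucose. Its level was 232, 190.2 and 171 FPKM at 0.0125, 0.02 and 0.025% glucose, 149, 128 and 112 FPKM at 0.05, 0.075 and 0.1%, and 101, 95.01 and 85.6 FPKM at 0.15, 0.2 and 0.4%. Each of the 8 steps towards lower glucose was upward, and no library was out of order. The fitted rise was 1.46 ± 0.08 on the log2 scale, 2.74-fold with a 95% interval of 2.42 to 3.11-fold (SE, n = 9 libraries; limma adjusted p = 4.5e-05). The call held without each library in turn, with changes between 1.38 and 1.57. A fit against percent glucose itself, without the logarithm, gave a limma adjusted p of 0.0953 for USV1 and called 0 genes in all (1914 at an unadjusted p under 0.05).

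The same transcript was lower in YL390. It stood at 42.8 FPKM in YL390 (bounds 30.5 and 37.4), against 95.01 FPKM in YL388 at 0.2% (bounds 68.3 and 80.1), which is 45.1% of the YL388 value and a difference of -1.13 on the log2 scale. The bounds do not overlap, and the YL390 value lay below all 9 YL388 libraries, the lowest of which had 85.6 FPKM at 0.4%. Of 6121 genes, 916 lay below all 9 YL388 libraries in the same way. Set against the YL388 curve at 0.2%, USV1 in YL390 was lower by a log2 difference of -1.16, where the YL388 libraries scattered around that curve with a residual SD of 0.0506.

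The stretch upstream of USV1 is printed because it holds the core of the stress element more often than nearly all others. Both strands were searched for AGGGG, whose reverse complement reads CCCCT, and for AGGGAT. From 250 bases before to 50 after the start, USV1 had 0 matches to AGGGG, against 21.6% of 5997 genes with at least 1. In the 500 bases before the start, a window chosen after the first was seen, it had 4, a number reached by 27 of 5996 genes (0.45%), and all 4 lay in the 300 bases that end 201 bases before the start. GIS1 had 1 match in the longer window, RPH1 had 2, and MSN2, MSN4, COM2 and RIM15 had 0, against 34.0% of genes with at least 1. No member matched AGGGAT in either window (9.3% and 15.4% of genes did). The sequences below are from the RefSeq genome R64, read 5′ to 3′ towards the gene on its own strand, with matches to AGGGG or its reverse complement in capitals. USV1 is given from chrXVI:114812-115111 (plus strand), GIS1 from chrIV:636639-636938 (plus strand), both from 500 to 201 bases before the start, and RPH1 from chrV:523119-523418 (plus strand), from 250 bases before to 50 after the start.
USV1: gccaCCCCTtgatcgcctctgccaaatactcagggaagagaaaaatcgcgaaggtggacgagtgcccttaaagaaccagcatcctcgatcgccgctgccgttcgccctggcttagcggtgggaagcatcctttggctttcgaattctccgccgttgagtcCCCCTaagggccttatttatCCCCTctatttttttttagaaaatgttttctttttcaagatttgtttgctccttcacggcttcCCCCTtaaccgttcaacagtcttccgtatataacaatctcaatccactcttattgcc
GIS1: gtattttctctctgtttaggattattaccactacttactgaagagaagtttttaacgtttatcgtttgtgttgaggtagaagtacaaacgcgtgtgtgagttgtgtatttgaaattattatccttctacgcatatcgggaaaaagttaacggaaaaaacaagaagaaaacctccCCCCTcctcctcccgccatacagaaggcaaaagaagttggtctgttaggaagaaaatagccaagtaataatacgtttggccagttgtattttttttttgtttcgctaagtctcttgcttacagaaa
RPH1: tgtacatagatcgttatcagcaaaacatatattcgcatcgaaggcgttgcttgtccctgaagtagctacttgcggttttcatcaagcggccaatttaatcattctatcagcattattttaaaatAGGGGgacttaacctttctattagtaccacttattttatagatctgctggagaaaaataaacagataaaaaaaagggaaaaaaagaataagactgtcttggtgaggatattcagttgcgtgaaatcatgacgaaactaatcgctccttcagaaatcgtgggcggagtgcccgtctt
In USV1 the matches begin 496, 340, 320 and 257 bases before the start and all 4 read CCCCT on the strand of the gene. The match of GIS1 begins 326 bases before the start, and the match of RPH1 printed here begins 126 bases before it. A match is a string of letters and was not tested for binding.

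GIS1 and RPH1, the JmjC pair, differed in their change over glucose. GIS1 (YDR096W, chromosome IV, 637139 to 639823, plus strand) was at 28.6, 27.4 and 28.3 FPKM from 0.0125 to 0.025% glucose, at 24.5, 23.6 and 21.9 FPKM from 0.05 to 0.1%, and at 19.6, 20.2 and 22.4 FPKM from 0.15 to 0.4%. The 3 lowest concentrations held the 3 highest values, and the lowest value was at 0.15%. Its fitted rise was 0.52 ± 0.11 on the log2 scale, or 1.43-fold with an interval of 1.21 to 1.69-fold (SE, n = 9; limma adjusted p = 0.00388), and it was called without each library in turn. With glucose in percent the call was lost (limma adjusted p = 0.167). RPH1 (YER169W, chromosome V, 523369 to 525759, plus strand) was at 17.3, 18.5 and 18.6 FPKM from 0.0125 to 0.025%, at 18.9, 19.3 and 20.0 FPKM from 0.05 to 0.1%, and at 21.9, 18.3 and 21.5 FPKM from 0.15 to 0.4%. Its lowest value was thus at the lowest concentration and its highest at 0.15%. The fitted change of RPH1 was -0.24 ± 0.09 and missed the threshold (SE, n = 9; limma adjusted p = 0.0539). Median-of-ratios scaling gave -0.36 (limma adjusted p = 0.00698), quantile normalization -0.46 (limma adjusted p = 0.00159), and the fit without the 0.2% library -0.31 (limma adjusted p = 0.0120), each past the threshold. Without an intensity trend the change of -0.24 passed it too (limma adjusted p = 0.0446).

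**Figure D2:**
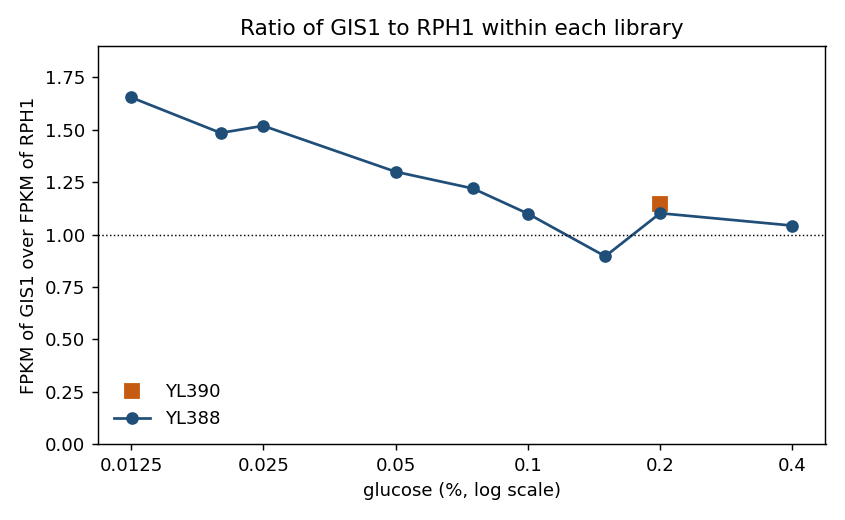
FPKM of GIS1 divided by that of RPH1 within each library (vertical axis, from 0) against glucose in percent on a log scale. The orange square is YL390, blue points are the 9 YL388 libraries, and the dotted line marks equal levels. The ratio is 1.66 at 0.0125% and close to 1 at 0.2% and 0.4%, and YL390 stands at 1.15.

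The ratio of GIS1 to RPH1 is the same under any linear scaling of a library. It was 1.66, 1.48 and 1.52 from 0.0125 to 0.025% glucose, 1.30, 1.22 and 1.10 from 0.05 to 0.1%, and 0.896, 1.10 and 1.04 from 0.15 to 0.4%. RPH1 was the higher of the pair in the 0.15% library alone. The change of GIS1 exceeded that of RPH1 by 0.76 on the log2 scale (exact permutation test over all orders of the 9 libraries, two-sided, p = 0.00131, adjusted p = 0.00403 over 21 pairs). The difference was called without each library in turn, at 0.67 to 0.91. In YL390 the ratio was 1.15, against 1.10 in YL388 at 0.2% glucose.

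RIM15 and COM2 were not called over glucose, and COM2 had the smaller fitted change. RIM15 (YFL033C, chromosome VI, 69115 to 74427, minus strand) was at 8.89, 9.32 and 9.21 FPKM from 0.0125 to 0.025%, at 9.29, 8.32 and 8.49 FPKM from 0.05 to 0.1%, and at 7.31, 7.61 and 7.99 FPKM from 0.15 to 0.4%. All 3 libraries at 0.15% and above lay below all 6 others. The fitted change of 0.27 ± 0.11 missed the threshold (SE, n = 9; limma adjusted p = 0.0690; interval 1.02 to 1.44-fold), and under quantile normalization it was -0.056. It passed without an intensity trend (limma adjusted p = 0.0266) and without the filter on low values (limma adjusted p = 0.0479).

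COM2 (YER130C, chromosome V, 421115 to 422446, minus strand) was at 34.4, 33.6 and 33.2 FPKM from 0.0125 to 0.025%, at 32.6, 32.9 and 33.0 FPKM from 0.05 to 0.1%, and at 28.3, 34.7 and 33.6 FPKM from 0.15 to 0.4%. Apart from the 0.15% library its values lay between 32.6 and 34.7 FPKM. The fitted change was 0.06 ± 0.09 (SE, n = 9; limma adjusted p = 0.631), with an interval of 0.900 to 1.21-fold, and it was -0.059 with median-of-ratios scaling and -0.11 with quantile normalization. The 0.15% library, the shallowest, held the lowest value of COM2, GIS1 and RIM15 and the highest of RPH1, and the part of depth in these values was not tested.

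Of the 7 regulators, 2 rose towards low glucose (USV1 and GIS1) and 0 fell by limma, while 31.6% of the 6121 genes tested rose and 15.7% fell, 47.3% in all. At an unadjusted limma p under 0.05 were USV1, GIS1, RPH1 and RIM15, beside 3317 of the 6121 genes. The count for the group is thus close to the share among all genes. All genes together had a median change of 0.12 in the deposited scaling. Relative to that median, the changes were 1.34 for USV1, 0.40 for GIS1, 0.23 for MSN4, 0.16 for RIM15, 0.02 for MSN2, -0.06 for COM2 and -0.36 for RPH1. With median-of-ratios scaling 1406 genes rose and 1400 fell, with quantile normalization 1213 and 1737, against 1937 and 958 as deposited. A square term over log2 glucose, which would show a bend, was called for 0 of the 7 (USV1 had the lowest limma adjusted p, 0.111, and was the 1 member with an unadjusted p under 0.05), against 16.1% of genes, 8.68% with a positive and 7.38% with a negative one.

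**Figure D3:**
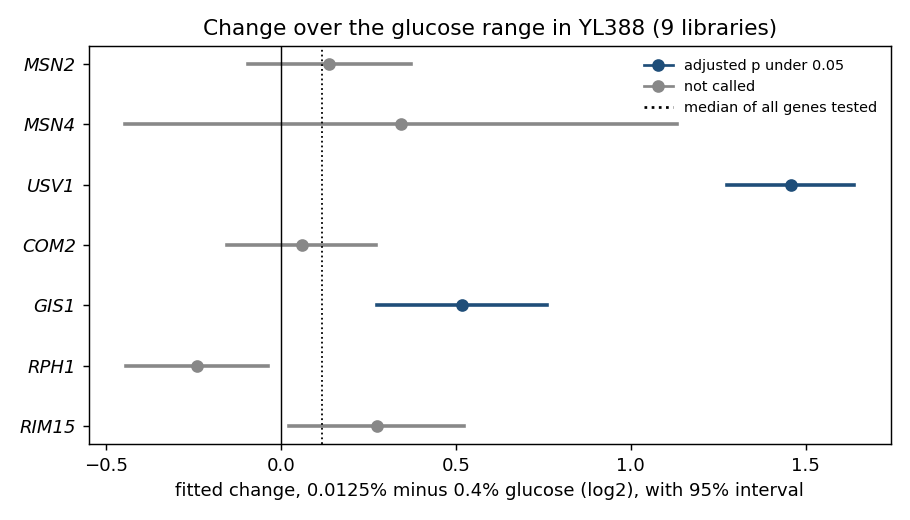
Fitted change of each regulator from 0.4 to 0.0125% glucose on the log2(FPKM + 1) scale in YL388 (horizontal axis), with 95% intervals from limma over 9 libraries. Blue marks an adjusted p under 0.05, grey the others, and the dotted line is the median of all genes tested at 0.12. USV1 at 1.46 stands clear of the other 6, and the RPH1 interval lies below 0.

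Differences between members were tested within libraries, over 21 pairs. The exact permutation test over the 9 libraries called 13 of the 21 after adjustment. USV1 rose by more than each of the other 6, by 1.70 over RPH1 (adjusted p = 5.79e-05), by 0.94 over GIS1 (adjusted p = 5.79e-05) and by 1.11 over MSN4 (adjusted p = 0.00708) in that exact test. GIS1 rose by 0.38 more than MSN2 (exact permutation adjusted p = 0.00403) and by 0.46 more than COM2 (adjusted p = 0.00708). MSN2 and COM2, neighbours in level, differed in change by 0.08 (exact permutation adjusted p = 0.571), and MSN2 and MSN4 by -0.20 (adjusted p = 0.571). The difference between MSN2 and MSN4 was -0.46 with a pseudocount of 0.1 and ran from -0.46 without the 0.0125% library to -0.014 without the 0.4% library, uncalled in each. A p that misses the threshold does not show that these moved alike. Leaving out a library gave between 10 and 13 called pairs, and a pseudocount of 0.1 gave 10. The sizes of the differences from MSN4, which is near the floor, depend on the pseudocount.

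The 9 libraries were also taken as 3 sets of 3 neighbouring concentrations. USV1 averaged 198 ± 31.6 FPKM in the low set (0.0125 to 0.025%), 129.7 ± 18.2 FPKM in the middle set (0.05 to 0.1%) and 93.9 ± 7.78 FPKM in the high set (0.15 to 0.4%), and GIS1 28.1 ± 0.596, 23.3 ± 1.30 and 20.7 ± 1.46 FPKM (SD, n = 3 libraries of different concentrations each). Low minus middle was 0.60 ± 0.14 for USV1 (SE; limma adjusted p = 0.0187) and 0.26 ± 0.07 for GIS1 (limma adjusted p = 0.0268). These were the 2 members called, both higher, as were 17.4% of genes (10.5% were lower, 27.9% called in all). Middle minus high was 0.46 ± 0.14 for USV1 and 0.17 ± 0.07 for GIS1 and was not called (limma adjusted p = 0.392 and 0.478, unadjusted 0.0102 and 0.0363). The error of both contrasts is the spread within the sets, so a trend over glucose inside a set counts as error. An uncalled step thus does not show that the level held. In that step limma called 0 of 6121 genes (0.0%), with 606 at an unadjusted p under 0.05. The low minus middle call of USV1 was lost without the library at 0.02, 0.075 or 0.1%, and that of GIS1 without the one at 0.0125, 0.02, 0.075 or 0.1% (limma adjusted p up to 0.0705 and 0.0984). Whether the steps differ in size was not tested.

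For the strains, 2 of the 7 regulators were at least 1.5-fold lower in YL390 at 0.2% glucose, MSN2 and USV1, and 0 at least 1.5-fold higher on the log2(FPKM + 1) scale. MSN4 differed by 0.45 on that scale, but its FPKM in YL390 was 1.77 times that in YL388 and stood above 8 of the 9 YL388 libraries. With a pseudocount of 0.1 its difference was 0.76, past 1.5-fold, while the bounds of these values overlap. Among 6072 genes 3.18% were at least 1.5-fold lower and 2.87% higher with the pseudocount of 1, 6.04% in all, and the median difference was 0.05. COM2 was at 29.2 FPKM in YL390 and 34.7 FPKM in YL388, a difference of -0.24 with overlapping bounds, and 1 of the 9 YL388 libraries lay below the YL390 value. GIS1 was at 21.6 and 20.2 FPKM, RPH1 at 18.8 and 18.3 FPKM and RIM15 at 7.83 and 7.61 FPKM in YL390 and YL388. For these 3 the bounds overlap and the YL390 value lies within the YL388 range. Each comparison is of 1 library with 1 library and carries no p-value.

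The genes that Msn2 and Msn4 are known to switch on were counted from a list of 40. The list was chosen with earlier results of these data known. Its counts, here and over glucose, thus describe the list and are no independent check. In YL390 29 of the 40 were at least 1.5-fold lower than in YL388 at 0.2% glucose, beside the 3.18% of all genes, and 0 were higher. The median difference of the 40 was -1.14, against 0.05 over all genes. HSP12, a membrane-protecting stress protein, was at 1777 FPKM in YL390, against 14520 FPKM in YL388. SIP18, a hydrophilin of desiccation tolerance, was at 46.6 against 209 FPKM, PAI3, an inhibitor of proteinase A, at 162 against 386 FPKM, and HSP26, a small heat shock protein, at 16.4 against 26.4 FPKM. YGP1, a secreted glycoprotein of nutrient limitation, and DDR2, a small stress protein, named here after their values were seen, were at 37.7 against 458 FPKM and at 725 against 5610 FPKM. The members nearest to equal were MOH1 (32.2 and 30.7 FPKM in YL390 and YL388), SSA3 (29.4 and 31.1 FPKM), GAC1 (12.2 and 11.4 FPKM), YJL144W (52.9 and 49.1 FPKM) and SSA4 (27.1 and 24.7 FPKM). SSA3 and SSA4 are Hsp70 genes. The differences of the 40 ran from -3.57 to 0.13. USV1, which is on no list here, had a difference of -1.13, and whether it depends on Msn2 or Msn4 was not tested.

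**Figure D4:**
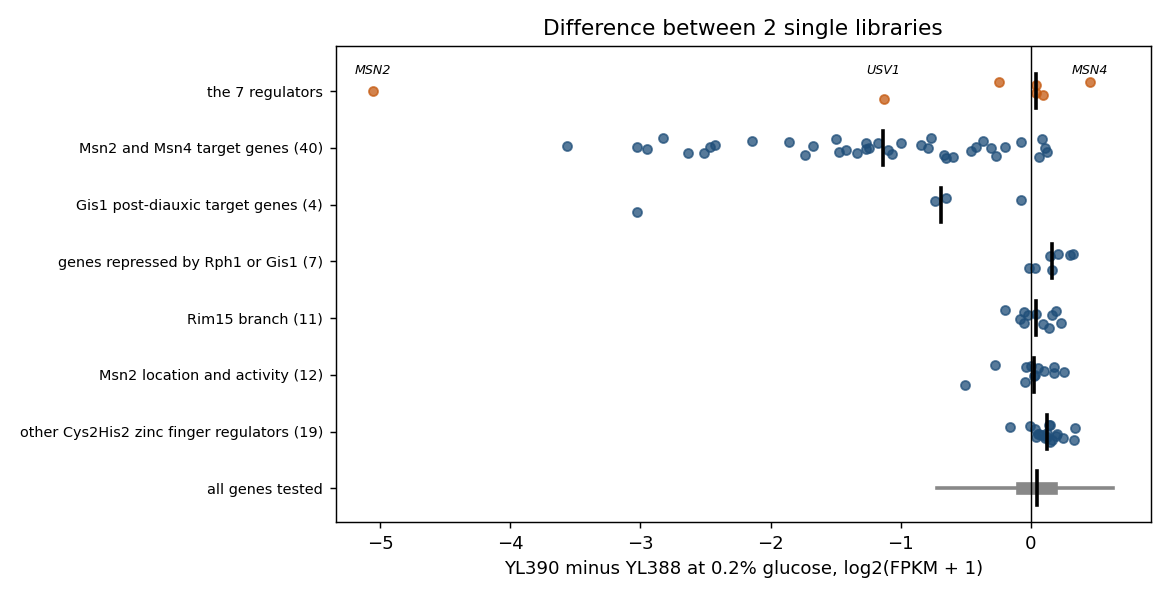
Difference between YL390 and YL388 at 0.2% glucose on the log2(FPKM + 1) scale (horizontal axis), 1 library each. Orange points are the 7 regulators, blue points the genes of each list with their number in brackets, black bars the medians, and the grey bar all 6072 genes (thick, percentiles 25 to 75; thin, 2.5 to 97.5). MSN2 and USV1 stand to the left at -5.06 and -1.13, and the Msn2 and Msn4 target genes have a median of -1.14.

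Over glucose in YL388, 39 of the 40 target genes rose and 0 fell by limma, beside the 31.6% and 15.7% of all genes, with a median change of 1.59 against 0.12. Median-of-ratios scaling and quantile normalization each left 38 that rose. SIP18 was at 13040 FPKM at 0.0125% and 208 FPKM at 0.4% (change 5.95 ± 0.92, limma adjusted p = 0.00105), PAI3 at 9459 and 344.5 FPKM (4.65 ± 0.72, adjusted p = 0.00108) and HSP26 at 331.5 and 23.9 FPKM (3.27 ± 0.57, adjusted p = 0.00171; SE, n = 9). MOH1, the gene not called, changed by 0.81 (limma adjusted p = 0.0604). The MSN2 transcript had a change of 0.14 in the same libraries. AGGGG was present in the 500 bases before the start of 38 of the 40, against 34.0% of all genes. Genes are commonly assigned to Msn2 and Msn4 with the help of this element, so that count describes the list.

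Smaller lists, also chosen with earlier results of these data known, covered the other regulators. Of 4 post-diauxic genes of Gis1, all 4 rose, against 31.6% of all genes. With median-of-ratios scaling or quantile normalization 3 of the 4 rose, as they did without the library at 0.0125, 0.02 or 0.4%. The target list holds 3 of the 4 as well, and the fourth, GRE1, a hydrophilin, was at 1059 FPKM at 0.0125% and 30.9 FPKM at 0.4% (change 5.09 ± 0.68, SE, n = 9; limma adjusted p = 0.000552). In YL390 GRE1 was at 18.9 FPKM, against 32.0 FPKM in YL388. All 7 genes that Rph1 or Gis1 are known to repress rose, by a median of 0.81, also with median-of-ratios scaling, and 6 of them with quantile normalization. Among them ATG8, the ubiquitin-like protein of autophagosome formation, was at 309.5 FPKM at 0.0125% and 112 FPKM at 0.4% (change 1.42 ± 0.26, limma adjusted p = 0.00233), and PHR1, the DNA photolyase, at 13.3 and 7.38 FPKM (0.95 ± 0.22, adjusted p = 0.00645; SE, n = 9). ATG29, an autophagy scaffold gene that overlaps another gene, was at 27.0 and 16.6 FPKM. In YL390 0 of the 7 were 1.5-fold lower or higher, near the 6.04% of all genes past 1.5-fold in either direction. ATG8 was at 107 FPKM in YL390, against 108 FPKM in YL388.

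The branch around Rim15 had 4 of 11 genes that rose (36.4%) and 1 that fell (9.09%), close to the 31.6% and 15.7% of all genes, with a median change of 0.06. The 1 that fell was the kinase gene SCH9, by 0.14 (limma adjusted p = 0.0413), and 0 fell without any 1 of the 9 libraries. IGO2, an endosulfine that inhibits a protein phosphatase once Rim15 has phosphorylated it, was at 494 FPKM at 0.0125% and 267 FPKM at 0.4% (change 0.99 ± 0.17, limma adjusted p = 0.00176). Its paralog IGO1 was at 353 and 285 FPKM (0.30 ± 0.06, adjusted p = 0.00372), and PHO85, the cyclin-dependent kinase that restrains Rim15, at 174 and 130.1 FPKM (0.45 ± 0.05, adjusted p = 0.00033; SE, n = 9). With median-of-ratios scaling 2 of the 11 rose and 1 fell, and with quantile normalization 2 and 2. Of 12 genes for the location and activity of Msn2, 3 rose (a share below the 31.6% of all genes) and 0 fell, or 3 and 2 with median-of-ratios scaling and 2 and 3 with quantile normalization. The 3 were the 14-3-3 genes BMH1 (2084 and 1559 FPKM at 0.0125 and 0.4%) and BMH2 (496 and 333 FPKM) and the kinase gene YAK1 (47.1 and 36.9 FPKM), with limma adjusted p = 0.0026, 0.000396 and 0.00485. YAK1 overlaps another gene. In YL390 YAK1 was at 23.05 FPKM, against 33.1 FPKM in YL388, a difference of -0.51 that stays short of 1.5-fold.

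Other Cys2His2 zinc finger regulators served for comparison, of which 5 of 19 rose (26.3%) and 2 fell (10.5%), near the 31.6% and 15.7% of all genes. With either other scaling 2 rose and 5 fell. YGR067C, a finger protein of unknown function, was at 61.2 FPKM at 0.0125% and 2.28 FPKM at 0.4% (change 4.14 ± 0.54, limma adjusted p = 0.000486), and ADR1, an activator of genes for ethanol and fatty acid use, at 38.0 and 19.8 FPKM (1.10 ± 0.16, adjusted p = 0.000708; SE, n = 9). MET31, an activator of sulfur genes, was at 106 and 143 FPKM and fell by 0.49 (limma adjusted p = 0.00437). In YL390 0 of these 19 differed by 1.5-fold from YL388, near the 6.04% of all genes that did so in either direction. Their differences ranged from -0.16 to 0.34.

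**Figure D5:**
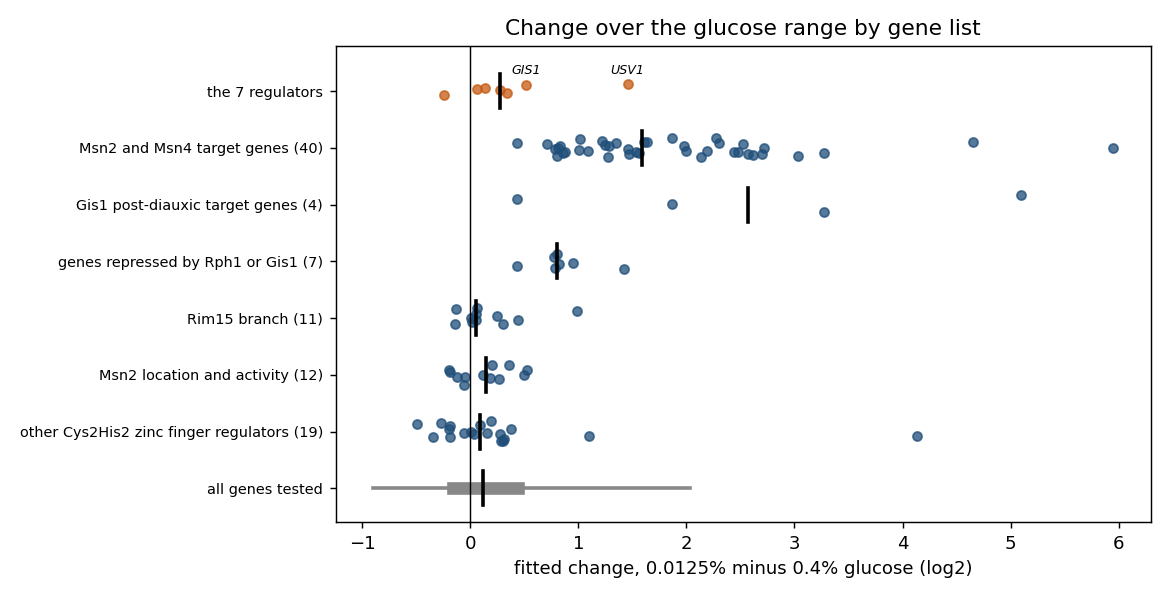
Fitted change from 0.4 to 0.0125% glucose in YL388 on the log2(FPKM + 1) scale (horizontal axis). Orange points are the 7 regulators, blue points the genes of each list with their number in brackets, black bars the medians, and the grey bar all 6121 genes (thick, percentiles 25 to 75; thin, 2.5 to 97.5). The target genes centre at 1.59, the regulators at lower values apart from USV1 at 1.46.

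The transcripts whose profile was most like each member were sought among genes of at least 500 bp and 10 FPKM without overlap, by the root-mean-square difference of centred log2 values over the 9 YL388 libraries. For USV1 these were ATG45 (0.0612), PST2, a flavodoxin-like protein (0.0690), and YMR315W (0.0824), and only 11 of 4135 genes lay within 0.1. The 3 had 80.3, 1456 and 329 FPKM at 0.0125% and 26.1, 536 and 142 FPKM at 0.4%. In YL390 they were at 29.3, 571 and 105 FPKM, against 30.3, 628 and 158 FPKM in YL388 at 0.2%, so USV1 differed between the strains by a larger factor than each of them. For GIS1 the nearest were MSD1 (0.0388), CTR2 (0.0425) and JIP4 (0.0436), with 251 genes within 0.1. RPH1 had NUP192 (0.0343), HSH155 (0.0359) and AHK1 (0.0360), and 594 genes within 0.1. MSN2 was matched most closely by NAB3 (0.0188), PHO81 (0.0376) and HOS4 (0.0380), COM2 by NUR1 (0.0311), TRI1 (0.0368) and CDC50 (0.0420), and RIM15 by PET111 (0.0278), CDS1 (0.0296) and RGD3 (0.0359), each with between 549 and 714 genes within 0.1. For MSN4 the nearest were USB1 (0.117), AIM36 (0.117) and MOB1 (0.118), and 0 genes lay within 0.1. All profiles share the same 9 libraries.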

How the data were processed

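Gene-level values of 10 steady-state libraries were used, 1 of strain YL390 and 9 of strain YL388, grouped by the strain number and glucose concentration in their labels. Per the file headers, the authors deposited FPKM for each gene together with confidence bounds. TopHat, Cufflinks, DESeq2 and the build sacCer3 are named by the submitters' processing notes, without versions or options. No annotation or strand setting is given in the sources used here. Of 6692 genes, 6008 were matched by systematic name to RefSeq R64, 6000 with identical coordinates. Positions are those of the files, counted from 1.

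To estimate depth, each bound was taken to lie 2 Poisson standard deviations from the centre (genes longer than 1500 bp and above 50 implied fragments). The bounds cover counting error only. In the deposited files 45.3 to 53.2% of genes above 0 have an FPKM that exceeds the upper bound given for it.

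Slopes on log2 glucose (given as the change over 5 doublings, lowest minus highest), square terms and contrasts between sets of 3 concentrations were fitted with limma 3.58.1 in R 4.3.3 (intensity trend) on log2(FPKM + 1), for genes averaging 1 FPKM or more. P-values were adjusted by Benjamini-Hochberg over all genes, with a threshold of 0.05. The p-values measure the spread between single libraries of different concentrations, which may be technical. Slope differences between members used all 362880 orders of the 9 libraries. Strains were compared without a test, past 1.5-fold. The slope fit was tested on simulated data. It recovered 62% of 100 true changes of 0.5 on the log2 scale and 88% of 100 true changes of 1. There were 6 false calls in this run of 6117 genes, and smaller true changes were not simulated. Few genes were changed in the run, whereas the fit called 2895 of 6121 genes in the YL388 libraries. Recovery and false calls at such a share of changed genes were not tested. Neither was the effect of shifts that the genes of a library share.

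The members and lists were chosen with earlier results of these data known. Named were all 7 members, the 3 steepest called genes of each list and the 3 nearest profiles of each member. Other genes named (YGP1, DDR2, SSA3, SSA4, GAC1, YJL144W, SCH9 and MOH1) were chosen after their values were seen, as was the promoter window of 500 bases.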

Additional observations from a re-analysis of the deposited data

How the results depend on the processing

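Alternatives were pseudocount 0.1, no or a stricter filter (10 FPKM), other scalings, the centre of the bounds, no intensity trend, glucose in percent, and leaving out each library. The rises of USV1 and GIS1 kept their calls under all of these but glucose in percent, which called 0 genes. Counts of called genes without a library ran from 2173 to 2923 for the slope (2895 with all), 315 to 908 for the square term (983), 475 to 2205 for low minus middle (1707), 0 to 2 for middle minus high (0), and 10 to 13 for pairs (13). The counts of strain differences stayed within 1.5 times. Uncalled values near 0 changed sign. With quantile normalization, slopes were -0.0088 for MSN2, -0.11 for COM2 and -0.056 for RIM15, low minus middle -0.010, -0.019 and -0.063 for the same genes, the square term of MSN4 0.0060 and middle minus high of COM2 -0.041. Median-of-ratios scaling gave COM2 -0.059 for the slope and -0.024 for middle minus high. Without a library, the slope of COM2 ran from -0.0021 to 0.12, square terms from -0.019 to 0.023 (MSN2), -0.019 to 0.040 (MSN4), -0.016 to 0.037 (GIS1), -0.019 to 0.0016 (RPH1) and -0.033 to 0.011 (RIM15), and middle minus high from -0.21 to 0.0095 (MSN4) and -0.056 to 0.088 (COM2). The cause was not tested. With pseudocount 0.1 the strain difference of MSN2 was -7.16 and that of MSN4 0.76 (0.45 with 1). No paired analysis was possible because the steady-state labels carry no replicate numbers.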
